A study of Mus musculus with 4 samples.

Results

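Cidec, the gene of a lipid droplet fusion protein, had 13.4-fold more mRNA in the livers of mice fed a diet without methionine and choline than in livers of mice on a normal diet, and the droplet coat genes Plin4 and Plin2 were higher too. These genes belong to a list of 10 whose products coat lipid droplets or control the first step of their breakdown: the perilipins Plin1 to Plin5, the CIDE genes Cidea, Cideb and Cidec, the lipase gene Pnpla2 and the gene of its inhibitor, G0s2. Members were found by gene symbol among the array rows that the platform annotation ties to exactly 1 gene. For 9 of the 10 such a row was found, out of 22180 genes tested. Cideb is named only on a row shared with another gene and has no value here. Where a gene had several rows, as 1082 of the tested genes did, the row with the highest mean over the arrays was used. Among the listed members this concerned G0s2 alone.

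The livers came from wild-type male C57BL/6J mice, an inbred strain, that were 6 weeks old when they were assigned at random to a normal diet or to the methionine- and choline-deficient (MCD) diet, which they received for 20 weeks. Each diet had 2 samples, each on its own Mouse Gene 2.1 ST array, for 4 arrays in all. The labels number the samples as mice and say nothing more on how they were taken, so the spread behind each p-value is that between these samples and may be technical. Signals are the deposited log2 values, in which a difference of 1 is a 2-fold change, and the number of arrays limits their precision.

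Triglyceride is stored in droplets bounded by a phospholipid monolayer, on which perilipins sit and regulate the access of lipases. Pnpla2 encodes adipose triglyceride lipase (ATGL), which removes the first fatty acid, and the protein of G0s2 inhibits it. CIDE proteins pass lipid from smaller to larger droplets where droplets touch. In mouse liver Plin2, Plin3 and Plin5 are the usual coats, Plin1, Plin4, Cidea and Cidec are best known from fat cells, and Cidec is known to appear in fatty liver.

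The array medians lay between 2.57 and 2.65. Of 11 measured hepatocyte markers 1 fell and 0 rose in limma (2 lower and 0 higher at an unadjusted p under 0.05). That gene was the apolipoprotein gene Apoa1 (fell by 0.50 ± 0.12, limma adjusted p = 0.0493), whose call was lost under 9 of 13 alternatives, quantile normalization, the replicate block and each left-out array among them (limma adjusted p over all alternatives 0.0156 to 0.176). Their summed linear signal was 25400 to 25700 in normal diet and 24000 to 24200 in MCD diet livers. Over all genes, 9.98% passed limma's test at an adjusted p under 0.05 (Benjamini-Hochberg over all 22180 genes), 6.37% higher and 3.62% lower, and the median difference was -0.03. At an unadjusted p under 0.05 in limma 13.8% of all genes were higher and 10.4% lower. Tests below are this fit, ± gives the standard error of a log2 difference, and "rose" or "fell" is written only of genes that passed it.

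Of the 9 measured genes 3 rose, Cidec, Plin4 and Plin2, and 0 fell. At an unadjusted p under 0.05 in limma 5 were higher and 0 lower, beside 13.8% and 10.4% of all genes. The share that passed was 33.3%, beside 9.98% of all genes, and the median difference of the 9 was 0.57. For 7 genes both MCD diet arrays lay above both normal diet arrays, which was so for 25.0% of all genes. For 0 of the 9 both lay below, beside 29.2% of all genes, and for the other two, Plin1 and G0s2, the diets overlapped. By an unadjusted p under 0.05 with at least a 2-fold change 2 of the 9 passed, Cidec and Plin4, beside 5.21% of all genes. An exact permutation test of 2 arrays against 2 cannot give a p below 0.333, so none is reported for single genes.

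**Figure D1:**
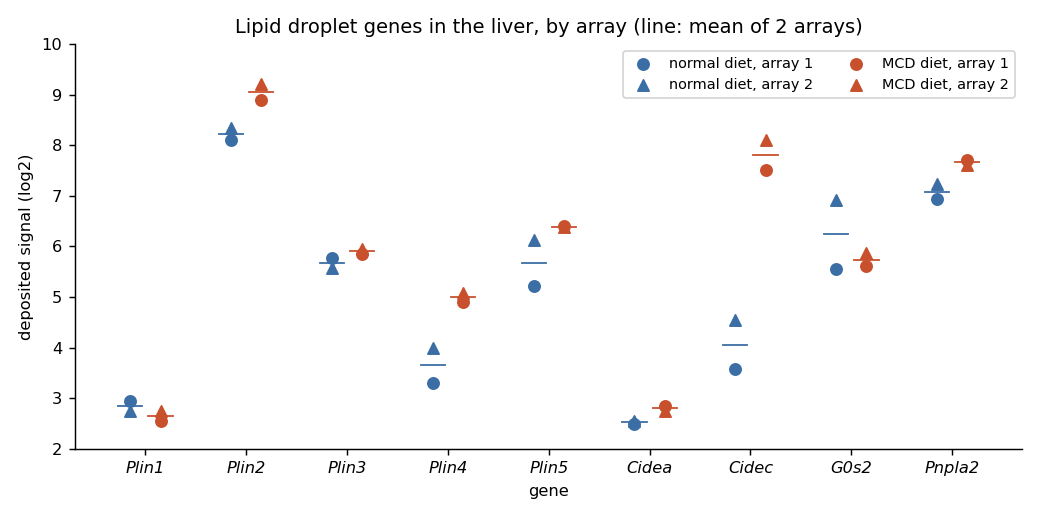
Deposited log2 signal (vertical axis) of each measured gene (horizontal axis) on each array, blue for normal diet and red for MCD diet, with a line at the mean of the 2 arrays of a diet. The red points of Cidec, at 7.51 and 8.10, lie far above the blue ones, at 3.57 and 4.54, while those of G0s2 lie within the range of the blue points.

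Cidec is the CIDE gene of fat cells, where its protein enlarges droplets. Its signal was 3.57 and 4.54 in the normal diet livers and 7.51 and 8.10 in those of the MCD diet. The lowest MCD diet value exceeded the highest normal diet value by 2.97, so the diets were well apart although the arrays within each diet also differed. Cidec rose by 3.75 ± 0.35 (13.4-fold, 95% interval 7.46 to 24.1, n = 2 arrays per diet, limma adjusted p = 0.00274). By the size of its increase Cidec ranked 23 among the 22180 genes. Its normal diet signals were low, beside array medians of 2.57 to 2.65, so the size of the fold change is uncertain. The rise passed under all 13 alternatives tried, with differences from 3.26 to 4.23. In contrast Cidea, whose protein has the same kind of activity in brown fat, had dim signals of 2.49 and 2.55 on normal diet and 2.84 and 2.75 on the MCD diet. Its arrays did not overlap, but the difference of 0.28 ± 0.12 did not pass (limma adjusted p = 0.232), and its interval runs from -0.02 to 0.57.

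Plin4, a long perilipin with many repeats that is abundant in fat cells, had signals of 3.30 and 4.0 on the normal diet and 4.90 and 5.08 on the MCD diet. Both MCD diet arrays were higher than both normal diet arrays, by at least 0.90. Plin4 rose by 1.34 ± 0.24 (2.52-fold, 95% interval 1.69 to 3.77, limma adjusted p = 0.0221). Without MCD diet array 1 or MCD diet array 2 it no longer passed (limma adjusted p = 0.0795 and 0.0906), with differences of 1.42 and 1.25.

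Plin2 encodes the coat protein found on droplets of most cells, hepatocytes and lipid-laden macrophages among them. It had the signals 8.10 and 8.34 on normal diet and 8.89 and 9.21 on the MCD diet. The diets did not overlap, and the gap between them was 0.56. Plin2 rose by 0.83 ± 0.16 (1.78-fold, 95% interval 1.35 to 2.34, limma adjusted p = 0.0294). Without any 1 of the 4 arrays Plin2 no longer passed, with limma adjusted p from 0.0502 to 0.117 and differences from 0.68 to 0.99.

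Plin5, the perilipin of cells that oxidise fatty acids, lies beside Plin4 on chromosome 17 with no other protein-coding gene between them in RefSeq. Its signal was 5.22 and 6.13 in the normal diet livers and 6.40 and 6.38 in those of the MCD diet. The MCD diet arrays were nearly equal and higher than both normal diet arrays, which stood apart from each other. The difference of 0.72 ± 0.29 (1.64-fold) did not pass (limma adjusted p = 0.196). Without normal diet array 2 it was 1.17 and passed (limma adjusted p = 0.0206), and without normal diet array 1 it was 0.26.

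Plin3, which coats small new droplets and is expressed in most tissues, had signals of 5.77 and 5.58 on normal diet and 5.85 and 5.94 on the MCD diet. The diets were close without overlapping, and the difference of 0.22 ± 0.13 did not pass (limma adjusted p = 0.384, 95% interval -0.10 to 0.53). Plin1, the perilipin that governs lipolysis in fat cells, had dim signals, 2.95 and 2.74 on normal diet and 2.55 and 2.75 on the MCD diet. The diets overlapped, and the difference was -0.20 ± 0.14 (limma adjusted p = 0.476, 95% interval -0.54 to 0.15).

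**Figure D2:**
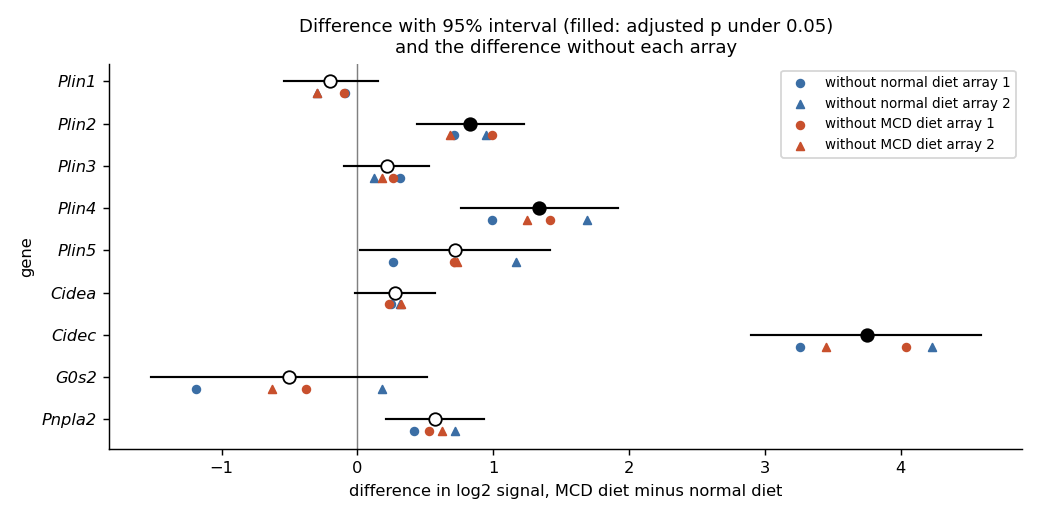
Difference in log2 signal, MCD diet minus normal diet (horizontal axis), for each gene (vertical axis) with its 95% interval, filled where the limma adjusted p is under 0.05. Small symbols give the difference without each array: those of Cidec stay between 3.26 and 4.23, whereas those of G0s2 run from -1.19 to 0.18.

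For the lipase gene Pnpla2 the signals were 6.93 and 7.24 on normal diet and 7.70 and 7.61 on the MCD diet. Both MCD diet arrays were higher, by at least 0.38, but the difference of 0.57 ± 0.15 (1.49-fold, 95% interval 1.16 to 1.91) did not pass the adjusted threshold (limma adjusted p = 0.0664). It did not pass under any of the 13 alternatives, with limma adjusted p from 0.0543 to 0.232. The inhibitor gene G0s2 had signals of 5.56 and 6.92 on normal diet and 5.61 and 5.86 on the MCD diet. Normal diet array 2 was the highest and normal diet array 1 the lowest of the 4. The difference of -0.50 ± 0.41 did not pass (limma adjusted p = 0.534, 95% interval -1.52 to 0.51). Its direction depended on the normal diet array used: it was -1.19 without normal diet array 1, which passed (limma adjusted p = 0.0275), and 0.18 without normal diet array 2 (limma adjusted p = 0.709). The other row of G0s2 was dimmer and differed by -0.24 ± 0.17.

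The genes did not change by the same amount. Taking the log2 ratio of a pair of genes within each array, Cidec changed by 2.41 more than Plin4 (pooled SD between arrays of a diet 0.25) and by 2.91 more than Plin2 (SD 0.39), and the ratios of the diets did not overlap. These pairs were added after the values were seen. Plin4 changed by 0.62 more than its neighbour Plin5 (SD 0.15), and Plin2 by 0.62 more than Plin3 (SD 0.24; 0.40 without normal diet array 1), again without overlap. The ratio of Plin2 to Plin5 changed by 0.12 (SD 0.38), with overlapping arrays, so those changes were not distinguishable. The ratio of Pnpla2 to G0s2, lipase to inhibitor, was higher in MCD diet livers by 1.08 (SD 0.56), and the diets were separated by 0.38. That change was 1.61 without normal diet array 1 and 0.55 without normal diet array 2. No test of these ratios was run.

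Several of these genes also varied among the normal diet livers. The normal diet arrays differed by 1.36 for G0s2, 0.97 for Cidec, 0.91 for Plin5 and 0.70 for Plin4, in each case with array 2 higher. Gaps as large were found for 0.162%, 0.618%, 0.762% and 1.9% of all genes. A normal diet gap above 0.5 in either direction was found for 5.89% of all genes. On the MCD diet the gap for the 9 genes was between 0.02 and 0.59, and for 7 of the 9 it was smaller than on the normal diet. The size of the rise of Cidec and Plin4 depended on the normal diet array: Cidec differed by 3.26 without array 1 and by 4.23 without array 2, and Plin4 by 0.99 and 1.69.

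**Figure D3:**
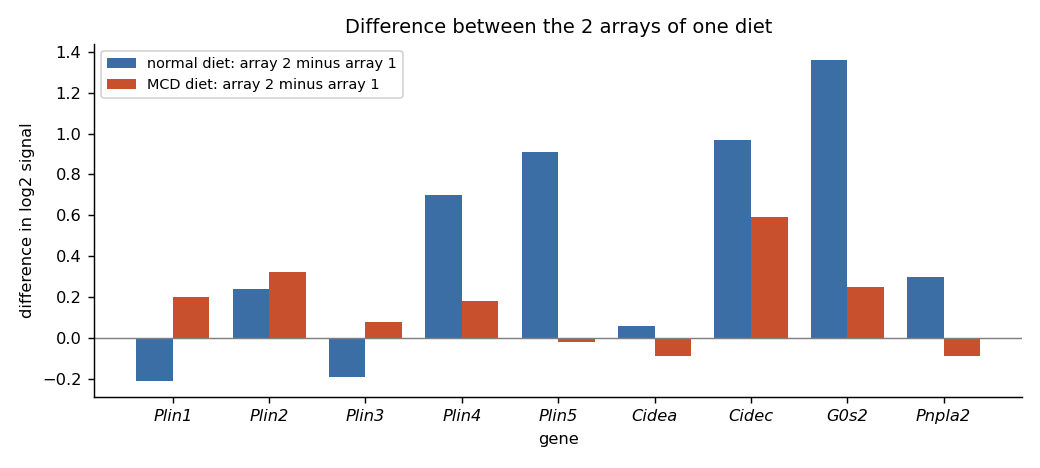
Log2 signal of array 2 minus that of array 1 (vertical axis) for each gene (horizontal axis), blue within the normal diet and red within the MCD diet. The tallest blue bars are those of G0s2 at 1.36, Cidec at 0.97 and Plin5 at 0.91, while no red bar exceeds 0.59.

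The stretches just upstream of 4 of these genes are shown to set the risers Cidec, Plin4 and Plin2 beside Plin5, the neighbour of Plin4 that did not pass. They come from RefSeq windows of 300 bases around the annotated start on build GRCm38.p6 and are cut to the part outside the gene, 5′ to 3′ on the gene's strand. Capitals mark AGGTCA, the core that nuclear receptors such as PPARs bind, or CCAAT, on either strand.
Cidec (chr6:113435761-113436010, minus strand, 250 bases): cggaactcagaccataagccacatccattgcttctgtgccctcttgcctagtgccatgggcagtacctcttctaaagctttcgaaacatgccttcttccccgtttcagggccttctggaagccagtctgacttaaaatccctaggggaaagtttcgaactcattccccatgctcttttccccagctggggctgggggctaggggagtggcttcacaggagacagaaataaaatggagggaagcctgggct
Plin4 (chr17:56109949-56110032, minus strand, 84 bases): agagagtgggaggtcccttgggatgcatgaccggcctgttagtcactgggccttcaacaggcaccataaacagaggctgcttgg
Plin2 (chr4:86670218-86670309, minus strand, 92 bases): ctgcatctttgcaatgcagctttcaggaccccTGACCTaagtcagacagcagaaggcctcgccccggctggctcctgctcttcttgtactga
Plin5 (chr17:56117607-56117798, minus strand, 192 bases): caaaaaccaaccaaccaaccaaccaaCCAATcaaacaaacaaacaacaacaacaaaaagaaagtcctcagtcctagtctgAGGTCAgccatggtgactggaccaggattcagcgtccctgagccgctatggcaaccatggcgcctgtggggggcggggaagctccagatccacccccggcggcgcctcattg
The windows were searched on both strands for AGGTCA (in 16.3% of 32851 windows in the table), for the E-box CACGTG (7.15%), for CCAAT (37.4%) and for TATAAA (13.6%). Among the 4 genes AGGTCA was found in the windows of Plin2 and Plin5. CCAAT was found in those of Plin2, Plin4 and Plin5, and CACGTG in that of Plin2. The CACGTG of Plin2, the CCAAT of Plin2 and Plin4 and 1 CCAAT of Plin5 are not wholly within the printed stretches. For Cidec, which has 2 annotated starts, neither window held any of these motifs. RefSeq windows were matched for 9 of the 10 genes. A match is a run of letters and not a measured binding site.

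The lists of lipolysis, droplet assembly and other coat genes had medians between -0.15 and 0.11, with members moving both ways. Among 13 measured lipolysis enzymes and cofactors 0 rose and 2 fell in limma (2 higher and 3 lower at an unadjusted p under 0.05), with a median difference of -0.15. The triglyceride hydrolases Ces1f and Ces1d fell by 1.86 ± 0.30 and 1.28 ± 0.21 (limma adjusted p = 0.0165 and 0.016). Both belong to a family with close copies whose signals may mix, and both lost the call without either normal diet array (limma adjusted p = 0.0549 to 0.0721). Outside the rule for named genes, the activator of ATGL, Abhd5, differed by 0.03 ± 0.16 (limma adjusted p = 0.946), with the sign turning under quantile normalization and median centring. Hilpda, which encodes a further inhibitor of ATGL, differed by 0.28 ± 0.14 and the hormone-sensitive lipase gene Lipe by -0.57 ± 0.15 (limma adjusted p = 0.299 and 0.0707), and Lipe passed under quantile normalization and median centring.

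Of 15 genes of triglyceride synthesis and droplet assembly 1 rose and 1 fell in limma (3 higher and 4 lower at an unadjusted p under 0.05), with a median of -0.01. Gpat3, an acyltransferase of the first step of glycerolipid synthesis, rose by 1.66 ± 0.23 (limma adjusted p = 0.00997), and by 1.02 when its rows were averaged (limma adjusted p = 0.0216). The phosphatidate phosphatase gene Lpin2 fell by 0.58 ± 0.12, a call lost under quantile normalization, when a gene's rows were averaged, with a replicate block, and without any 1 of the arrays (limma adjusted p = 0.0526 to 0.136). Among 18 other droplet coat proteins 1 rose, the acyl-CoA synthetase gene Acsl4 (1.11 ± 0.24), and 1 fell, the droplet hydrolase gene Ldah (fell by 0.59 ± 0.13), with a median of 0.11. Acsl4 lost its call without normal diet array 2 or MCD diet array 1 (limma adjusted p = 0.144 and 0.149), and Ldah with a replicate block or without any 1 of the arrays (limma adjusted p = 0.0723 to 0.198). The shares called in the 3 groups, 15.4%, 13.3% and 11.1%, lie near the 9.98% of all genes. At an unadjusted p under 0.05 in limma 1 of the coat genes was higher and 1 lower. Of all genes 13.8% were higher and 10.4% lower at that threshold.

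Among 15 transcriptional regulators 0 rose and 2 fell in limma (1 higher and 7 lower at an unadjusted p under 0.05). The share called, 13.3%, lies near the 9.98% of all genes. At the unadjusted threshold 7 of the 15 were lower, beside 10.4% of all genes, and 1 was higher, beside 13.8%. The median difference of the list was -0.37, beside -0.03 over all genes. The lipogenic factor gene Srebf1 fell by 1.46 ± 0.29 and Cebpa, a factor of hepatocyte and fat cell differentiation, by 0.86 ± 0.15 (limma adjusted p = 0.0314 and 0.0209). Srebf1 lost its call without normal diet array 1 or either MCD diet array, and Cebpa without normal diet array 1, normal diet array 2 or MCD diet array 2 (limma adjusted p = 0.0537 to 0.112). Outside the rule for named genes, Pparg, which drives Cidec and Plin4 in fat cells, differed by 0.60 ± 0.17 (limma adjusted p = 0.0855) and Ppara, the fatty acid sensor of hepatocytes, by -0.29 ± 0.21 (limma adjusted p = 0.482).

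Targets of these receptors other than the droplet genes went both ways. Of 15 measured PPAR alpha targets 5 rose and 2 fell (46.7%, beside 9.98% of all genes), with a median of 0.13. Cyp4a31 rose by 3.89 ± 0.17 (limma adjusted p = 0.000349) and Cyp4a14 by 1.98 ± 0.14 (limma adjusted p = 0.00131), although close copies in that P450 family may share signal. Pdk4, a kinase that spares glucose, rose by 3.02 ± 0.20, whereas the fatty acid binding protein gene Fabp1 fell by 1.75 ± 0.21 (limma adjusted p = 0.00102 and 0.00571). Of 12 genes linked to PPAR gamma and fatty liver 5 rose and 1 fell, a larger share than the 9.98% of all genes. The median of this list was also 0.13. The lipoprotein lipase gene Lpl rose by 4.01 ± 0.29 (2.35 when its rows were averaged), the thioesterase gene Acot2, which has near copies, by 3.57 ± 0.27, the fatty acid receptor gene Cd36 by 3.19 ± 0.33 and Fabp4 by 1.63 ± 0.15 (limma adjusted p = 0.0013, 0.00156, 0.00368 and 0.00261).

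**Figure D4:**
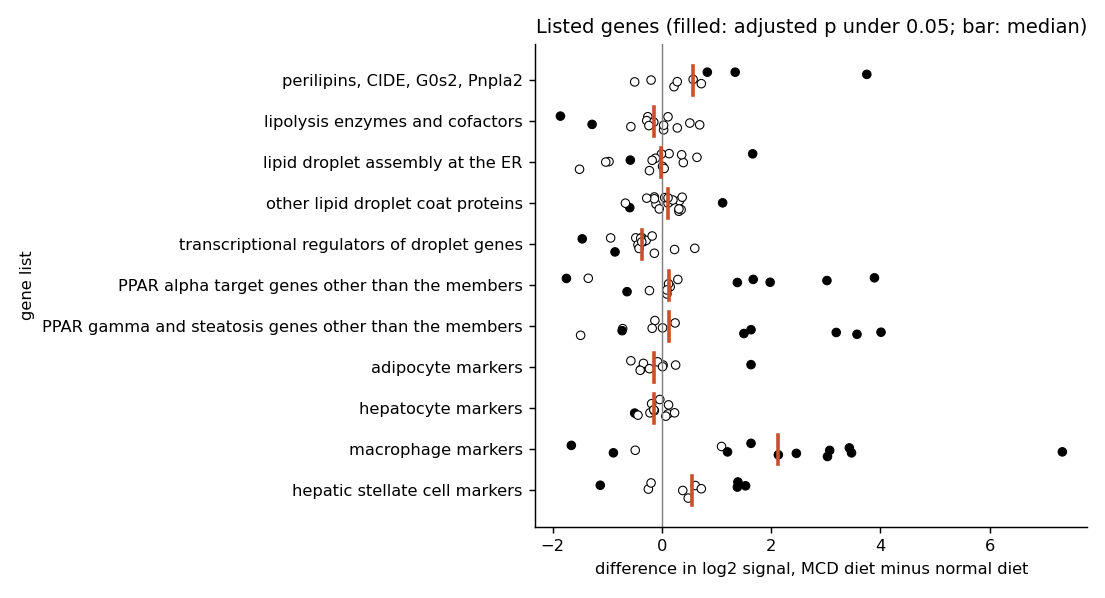
Difference in log2 signal, MCD diet minus normal diet (horizontal axis), of each measured gene by list (vertical axis), filled where the limma adjusted p is under 0.05, with a bar at the list's median. The medians are 0.57 for the droplet genes, -0.15 for the lipolysis list, -0.37 for the regulator list and 2.13 for macrophage markers.

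Markers of other cell types moved beside these genes. Of 13 macrophage markers 9 rose and 2 fell (84.6%, beside 9.98% of all genes). Their summed linear signal was 506 to 525 on normal diet and 2640 to 3420 on the MCD diet. Gpnmb and Trem2, genes of lipid-laden macrophages, and the macrophage marker Cd68 rose by 7.33 ± 0.20, 3.47 ± 0.22 and 3.43 ± 0.24 (limma adjusted p = 0.000163, 0.000905 and 0.00129). The 2 that fell, named outside the rule, were Clec4f and Timd4, by 1.66 ± 0.19 and 0.89 ± 0.16 (limma adjusted p = 0.00546 and 0.024). Of 10 stellate cell markers, from cells that keep retinoid in droplets, 3 rose and 1 fell (40.0%), with summed signals of 958 to 1190 and 2050 to 2110. Without Dcn the sums were 484 to 613 and 705 to 729. Ecm1, named outside the rule, fell by 1.13 ± 0.17 (limma adjusted p = 0.0122), whereas Hgf, Dcn and Pdgfrb rose by 1.53 ± 0.16, 1.39 ± 0.14 and 1.38 ± 0.12 (limma adjusted p = 0.00376, 0.00372 and 0.00219). Their part in the higher Cidec, Plin4 and Plin2 was not tested, and in whole liver more cells of a type and more RNA per cell cannot be told apart.

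Of 10 fat cell markers 1 rose and 0 fell in limma, 10.0% beside 9.98% of all genes (1 higher and 4 lower at an unadjusted p under 0.05). That gene was Fabp4, which macrophages and endothelium also express. At the unadjusted threshold 13.8% of all genes were higher and 10.4% lower, so the share of fat cell markers that were lower exceeded that of all genes. The summed signal of the fat cell markers was 90.7 to 94.5 on normal diet and 137 to 149 on the MCD diet with Fabp4. For the other 9 it was 61.5 to 67.6 and 52.8 to 58.5. Those 9 differed by -0.57 (Lipe) to 0.25 (Retn). Both MCD diet arrays lay below both normal diet arrays for Lipe, Adipoq, Lep, Adig and Trarg1, beside 29.2% of all genes. They lay above for Retn, beside 25.0% of all genes, and the diets overlapped for the others. The adipokine genes Adipoq and Lep, like Lipe, Retn, Adig and Trarg1 named outside the rule, had dim signals on all 4 arrays, and differed by -0.34 ± 0.14 and -0.23 ± 0.12 (limma adjusted p = 0.201 and 0.321). The part of fat cells in the higher Cidec and Plin4 was not tested.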

How the data were processed

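The deposited values are log2 signals. The authors made them with the program Transcriptome Analysis Console, as named in the submitters' processing notes. The version used, the background correction and the normalization method are not stated in the sources used here, and the log base was inferred from the range of the values, on which all fold changes depend. The table has 34472 rows, of which 23521 name 1 gene, 1814 several and 9137 none on the platform annotation. The number of unused sample columns was 0. Values were tested as deposited, with no filter and no pseudocount, in limma 3.58.1 (R 4.3.3; lmFit and eBayes, two-sided, no covariate, 2 residual degrees of freedom raised to 6.06 by moderation), with Benjamini-Hochberg adjustment over 22180 genes. The test was also run on simulated data with independent normal noise, as it assumes. That run cannot show how the test performs on these arrays. Groups came from the sample titles. Genes, lists and tests were chosen with earlier results of these data known.

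Named genes are the measured droplet genes, up to 4 passing genes of each list with the largest differences, and up to 3 of each marker list. Of 141 listed genes 127 were measured. Flanking sequences come from the RefSeq promoter table (GRCm38.p6). Motifs were chosen after the sequences were seen. Alternatives were quantile normalization, median centring, an intensity trend, filters that drop the dimmest 25% or 50% of genes, the mean of a gene's rows, all rows, a replicate block, an unadjusted p with a 2-fold change, and leaving out each array.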

Additional observations from a re-analysis of the deposited data

How the results depend on the processing

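Under quantile normalization, median centring, both filters on dim genes, the intensity trend, the mean of a gene's rows, all rows tested and the replicate block, 3 of the droplet genes were called higher and 0 lower, as in the main result. The labels do not say whether the numbers pair the samples. The gaps between arrays 2 and 1 of the diets correlated at 0.0537 over genes, which cannot settle it with 1 gap per diet. The replicate block gave 1288 genes higher and 662 lower over the whole table. With an unadjusted p under 0.05 and a 2-fold change 780 genes were higher and 375 lower, and 2 droplet genes passed, without Plin2. Leaving out 1 array, which assumes that the lone sample varies like the other diet, gave 688 to 1011 genes higher and 362 to 482 lower, 1 to 3 droplet genes higher and 0 to 1 lower. The droplet gene called lower was G0s2, without normal diet array 1 (-1.19). Its difference was 0.18 without normal diet array 2, where that of Ppara was 0.02 (over the arrays left out, -0.60 to 0.02). The difference of Abhd5 was -0.05 under quantile normalization, -0.04 under median centring and ranged from -0.17 to 0.23 over the arrays left out. The change of the Plin2 to Plin5 ratio was -0.22 without normal diet array 2, -0.05 without MCD diet array 2 and at most 0.45. The causes were not tested. The planned ratios with Cideb were not run, since no row names it alone. The median of all genes moved from -0.03 to -0.02 under quantile normalization and -0.10 under median centring. Detection over background was not analysed here, which leaves the sizes for the dim Plin1 and Cidea uncertain. The same holds for the fold changes of Cidec and Plin4, whose signals on normal diet array 1 were 3.57 and 3.30.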

Other observations

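The gap between the normal diet livers was not confined to the droplet genes. Of 15 measured PPAR alpha targets 14 were higher on normal diet array 2 than on array 1, with a median gap of 0.33, and 5 of them by more than 0.5. Over all genes the median gap was 0.00. Chosen after the values were seen, the thioesterase gene Acot1, which has near copies, stood at 4.50 and 5.91 on the normal diet arrays, the pantetheinase gene Vnn1 at 5.05 and 6.32, and Cd36 at 6.11 and 7.17. On the MCD diet the same genes had gaps of 0.21, 0.09 and -0.01. Among 12 genes linked to PPAR gamma 6 were higher on normal diet array 2, among 13 lipolysis genes 9 and among 15 transcriptional regulators 11. Of 10 stellate cell markers 0 were higher on that array, with a median gap of -0.33. Acot1 differed between the diets by -1.35 ± 0.43 (limma adjusted p = 0.114), by -2.06 without normal diet array 1, which passed (limma adjusted p = 0.00568), and by -0.64 without normal diet array 2 (limma adjusted p = 0.129).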
